A study of Mus musculus with 23 samples.

Results

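The genes described are 35 genes of squamous keratinocytes, the cells of stratified, scale-forming epithelium such as skin, measured in whole mouse colon. They are a list of keratins, desmosomal proteins and cornified envelope genes. This list and the further gene lists used below were drawn up with earlier results of these data known. Shares set against all genes therefore describe the lists and are not an independent test. Each gene was read from the probe set annotated to that gene alone with the highest mean over the 23 arrays. Of the 35 genes 34 had such a probe set, among 18194 genes read in the same way, and the desmoglein gene Dsg3 had none and is not analysed here.

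Squamous epithelium renews itself from a basal layer that expresses Krt5, Krt14 and the transcription factor Trp63. Cells leaving that layer switch to Krt1 and Krt10 in skin or to Krt4 and Krt13 in mucosae such as the mouth and oesophagus, and finally build the cornified envelope from loricrin, involucrin and small proline-rich proteins cross-linked by transglutaminases. The colon itself is lined by a simple columnar epithelium with the keratins Krt8, Krt18, Krt19 and Krt20, and squamous epithelium begins in the anal canal.

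Each sample was total RNA of a colon from a BALB/c mouse, labelled with biotin and hybridised to an Affymetrix array. The 4 groups were untreated wild-type mice (WT, n = 5), wild-type mice given TNBS (WT TNBS, n = 6), untreated Fn14 knockout mice (KO, n = 5) and Fn14 knockout mice given TNBS (KO TNBS, n = 7). TNBS is a hapten that causes colitis. It was instilled rectally at 0.2% in equal parts of PBS and ethanol over 6 weeks, with doses stepped from 1.0 to 2.0 µl per g of mouse, and colons were collected 3 days past the final dose. Fn14, encoded by Tnfrsf12a, is the receptor of the cytokine TWEAK. The labels give no age or sex, do not say whether untreated mice received the ethanol vehicle, which stretch of colon was taken, or that the samples of a group are separate animals, so p-values here reflect spread among samples that may be technical.

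The values are log2 signals with a lowest value of 2.17, at which 27.9% of all values stood, so fold changes of genes near it are understated. Tnfrsf12a read 6.65 ± 0.52 (SD, n = 5) in WT and 7.35 ± 0.51 (n = 6) in WT TNBS, against 4.11 ± 0.06 (n = 5) in KO and 4.06 ± 0.11 (n = 7) in KO TNBS, with no overlap between genotypes. Colon markers were present on every array: the mean log2 signal of 5 simple epithelium keratins lay between 12.9 and 13.2, that of 8 goblet cell genes between 13.4 and 13.7 and that of 16 absorptive colonocyte genes between 12.1 and 12.7. In bulk colon RNA, fewer cells of a type and less RNA per cell cannot be told apart.

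Promoter sequences are shown for a basal keratin and for 3 genes of the upper layers that varied together across arrays. A RefSeq promoter entry on build GRCm38.p6 was used for 15 members, those whose entry began within 100 bases of the gene's outermost annotated start. The printed stretch is the 150 bases before the start, 5′ to 3′ on the gene's strand, with capitals marking matches to TATAAA, the TATA box, or to TGANTCA, the motif of AP-1 factors. Krt5 encodes the basal keratin, Krtdap a secreted peptide of differentiating keratinocytes, Lor the envelope protein loricrin and Sprr1a a small proline-rich envelope precursor.
Krt5 promoter (chr15:101712906-101713055, - strand): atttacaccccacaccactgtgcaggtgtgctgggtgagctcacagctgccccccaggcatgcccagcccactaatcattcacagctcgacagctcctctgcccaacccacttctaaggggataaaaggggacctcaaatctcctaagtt
Krtdap promoter (chr7:30787755-30787904, + strand): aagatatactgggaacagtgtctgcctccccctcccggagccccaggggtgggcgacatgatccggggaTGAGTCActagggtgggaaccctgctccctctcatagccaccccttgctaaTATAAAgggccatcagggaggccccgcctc
Lor promoter (chr3:92083143-92083292, - strand): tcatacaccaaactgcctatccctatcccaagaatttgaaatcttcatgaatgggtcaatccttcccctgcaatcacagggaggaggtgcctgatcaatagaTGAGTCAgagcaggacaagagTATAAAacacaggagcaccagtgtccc
Sprr1a promoter (chr3:92485882-92486031, - strand): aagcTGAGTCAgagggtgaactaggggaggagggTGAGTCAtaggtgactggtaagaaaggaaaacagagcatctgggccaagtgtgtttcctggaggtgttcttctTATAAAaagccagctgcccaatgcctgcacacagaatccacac

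Counted from the start, the TATAAA match lay at -30 to -25 in Krtdap, -27 to -22 in Lor and -43 to -38 in Sprr1a. The TGANTCA match lay at -81 to -75 in Krtdap and -48 to -42 in Lor, and Sprr1a held it at both -146 to -140 and -116 to -110. The Krt5 window, searched from 250 bases before to 50 after the start, held neither. Over windows of that length and on both strands, TATAAA was found for 8 of the 15 members (Aqp3, Col17a1, Ivl, Krtdap, Lor, Sprr1a, Sprr1b and Sprr3) and in 15.0% of 23797 promoters at gene starts. TGANTCA was found for 8 of 15 (Dmkn, Ivl, Krt13, Krtdap, Lor, Serpinb5, Sprr1a and Sprr1b) and in 8.19% of all. GCCNNNGGC, the motif of AP-2 factors, was found for Cnfn alone and in 15.4% of all, and CATGNNNNNNCATG, a paired core of the p53 family to which Trp63 belongs, for 0 of 15 and in 0.845% of all. These are matches of letters, and no binding was measured.

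Of the 7 measured basal layer genes 2 rose with TNBS in WT (28.6%) and 1 in KO (14.3%), against 10.2% and 4.08% of all genes called higher. Krt14, the basal partner of Krt5, read 5.51, 3.84, 3.21, 5.34 and 5.53 on the 5 WT arrays, and between 6.85 and 9.79 (median 9.27) in WT TNBS. It read 7.67, 3.60, 4.81, 5.88 and 5.71 in KO and between 6.41 and 10.61 (median 9.63) in KO TNBS. All WT TNBS arrays lay above all WT arrays, while the KO groups overlapped through KO array 1, which at 7.67 exceeded KO TNBS arrays 3 and 7. Krt14 rose 17.2-fold with TNBS in WT (log2 4.11 ± 0.82 SE, limma adjusted p = 0.00178) and 9.25-fold in KO (3.21 ± 0.80, adjusted p = 0.0163).

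Dsc3, a desmosomal cadherin of the lower layers, read 3.32, 3.12, 3.25, 3.25 and 3.35 in WT and 4.20 to 8.17 (median 6.59) in WT TNBS, with no overlap. It read 5.64, 3.12, 2.45, 4.56 and 3.61 in KO and 3.12 to 8.35 (median 7.27) in KO TNBS, where arrays 3, 5 and 7 stayed within the untreated range. Dsc3 rose with TNBS in WT (3.18 ± 0.98, limma adjusted p = 0.0308), a call kept in 15 of 23 fits with an array left out, and the KO difference of 2.40 ± 0.95 did not pass (adjusted p = 0.129). Krt15, a keratin of basal and hair follicle stem cells, read 4.05, 3.25, 3.30, 3.57 and 4.05 in WT and 4.06 to 6.94 (median 5.30) in WT TNBS, groups that did not overlap. It read 4.71, 3.30, 3.30, 3.99 and 4.45 in KO and 3.50 to 7.62 (median 5.99) in KO TNBS. Its differences of 1.75 ± 0.65 and 1.49 ± 0.63 did not pass (limma adjusted p = 0.0723 and 0.157).

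The other basal genes also had positive differences without passing. Krt5 differed by 1.70 ± 0.69 in WT and 1.85 ± 0.67 in KO (limma adjusted p = 0.105 and 0.094). Trp63, which specifies stratified epithelium, differed by 2.06 ± 0.81 in WT and 2.22 ± 0.79 in KO (adjusted p = 0.0941 and 0.0864). Col17a1, the collagen of hemidesmosomes, stood at the lowest value on 16 arrays and never passed 2.90, and Fat2, a protocadherin, stood there on all 23, so their probe sets carried little or no measure of these samples.

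The keratins of wounded or activated epidermis did not behave alike. Krt17 read 4.72, 4.81, 5.08, 4.89 and 5.04 in WT and 5.33 to 7.38 (median 6.48) in WT TNBS, with no overlap, and rose 2.87-fold (1.52 ± 0.41, limma adjusted p = 0.0145). It read 5.61, 5.49, 4.91, 4.89 and 5.12 in KO and 5.54 to 7.33 (median 5.81) in KO TNBS, where arrays 1, 4 and 6 lay above 7 and the rest near the KO maximum (1.13 ± 0.40, adjusted p = 0.0858). Krt6a read 4.93, 2.17, 2.19, 4.66 and 5.38 in WT, 5.15 to 7.71 (median 6.58) in WT TNBS, 6.58, 2.55, 3.67, 2.51 and 5.88 in KO and 4.32 to 9.84 (median 7.55) in KO TNBS. Its untreated arrays were spread over more than 3 log2 units in each genotype, the groups overlapped, and the differences of 2.79 ± 0.97 and 2.69 ± 0.94 did not pass (adjusted p = 0.0565 and 0.0836).

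Krt16, the usual pair of Krt6a in wound edges, stood between 2.17 and 2.37 on all 10 untreated arrays. In WT TNBS it read 5.82 on array 2 and 7.06 on array 6 and at most 2.32 on the other arrays. In KO TNBS it read 8.78 on array 2, 3.74 on array 6, 3.42 on array 4 and at most 2.36 on the rest. The group differences of 1.38 ± 1.04 and 1.32 ± 1.00 rested on these few arrays and did not pass (limma adjusted p = 0.443 and 0.513).

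The suprabasal keratins of mucosae split the untreated arrays of both genotypes, and so did Krt6a and, in WT, Krtdap and Krt14. Krt13 read 6.05, 2.54, 2.51, 5.65 and 5.75 in WT and 7.03, 2.51, 4.45, 2.51 and 6.75 in KO. In WT TNBS it lay between 6.42 and 7.96 (median 7.21), above every WT array, and in KO TNBS between 5.94 and 8.33 (median 7.56). Krt13 rose 6.57-fold in WT (2.72 ± 0.86, limma adjusted p = 0.0349, 0.07 with the replicate number as a block), a call kept in 17 of 23 fits with an array left out, and the KO difference of 2.66 ± 0.83 did not pass (adjusted p = 0.0516). Krt4, its partner, read 4.98, 2.17, 2.17, 4.68 and 5.36 in WT, 2.35 to 6.38 (median 5.83) in WT TNBS, 7.04, 2.17, 3.84, 2.44 and 6.39 in KO and 3.16 to 7.80 (median 7.11) in KO TNBS. It was low on the same untreated arrays as Krt13, namely WT arrays 2 and 3 and KO arrays 2 and 4, and its differences of 1.27 ± 1.05 and 1.81 ± 1.02 did not pass (adjusted p = 0.495 and 0.32).

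**Figure D1:**
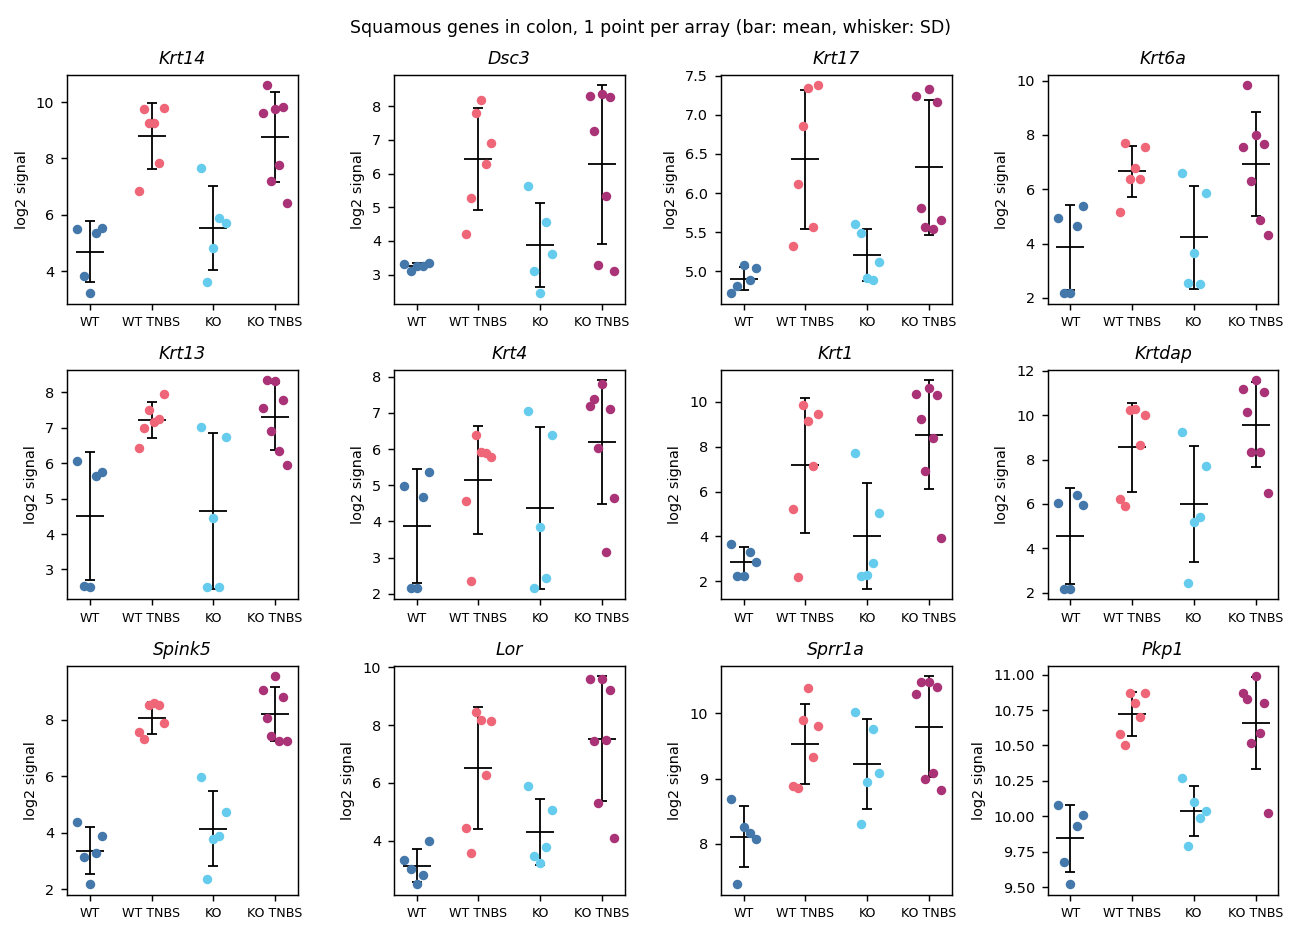
Log2 signal of 12 squamous genes (vertical axis, a separate scale per gene) in the 4 groups, with 1 point per array, a bar at the group mean and whiskers of 1 SD (n = 5, 6, 5 and 7). Krt14, Dsc3, Krt17, Krt13, Spink5, Sprr1a and Pkp1 show WT TNBS arrays wholly above WT, while untreated KO arrays of Krt13 and Krt4 spread from the bottom of the scale to near the TNBS arrays.

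The genes of the spinous and granular layers, where keratinocytes differentiate, had the largest median difference of the role groups (log2 2.97 in WT and 2.53 in KO over 8 genes). Spink5, which encodes the epidermal protease inhibitor LEKTI, read 4.37, 3.13, 2.17, 3.29 and 3.87 in WT and 7.30 to 8.59 (median 8.20) in WT TNBS. It read 5.95, 2.37, 3.79, 3.88 and 4.72 in KO and 7.23 to 9.54 (median 8.07) in KO TNBS. No untreated array of either genotype reached any TNBS array. Spink5 rose 25.9-fold in WT (4.69 ± 0.56, limma adjusted p = 1.13e-05) and 16.6-fold in KO (4.05 ± 0.54, adjusted p = 0.000142).

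Krt1, the first keratin of epidermal differentiation, read 3.68, 2.25, 2.25, 3.31 and 2.86 in WT, 2.17 to 9.87 (median 8.16) in WT TNBS, 7.71, 2.25, 2.29, 2.81 and 5.06 in KO and 3.91 to 10.60 (median 9.22) in KO TNBS. It rose in WT (4.30 ± 1.40, limma adjusted p = 0.0409) and in KO (4.50 ± 1.35, adjusted p = 0.045), with groups that overlapped: WT TNBS array 2 was at the lowest value of the series and KO array 1 at 7.71. With 1 array left out in turn the call held in 14 of 23 fits in WT and in 7 of 23 in KO. Krt10, its partner, read 6.76, 6.84, 6.50, 6.74 and 6.59 in WT, 6.54 to 9.42 (median 8.49) in WT TNBS, 7.93, 6.88, 6.82, 6.77 and 7.08 in KO and 6.63 to 10.28 (median 9.20) in KO TNBS. Its differences of 1.43 ± 0.65 and 1.63 ± 0.63 did not pass (adjusted p = 0.151 and 0.116). WT TNBS arrays 1 (6.63) and 2 (6.54) lay inside the WT range of Krt10, KO TNBS array 7 (6.63) lay below every KO array, and KO TNBS arrays 3 and 5 lay under KO array 1. The other treated arrays were above the untreated range of their genotype.

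Krtdap, Dmkn and Sbsn encode secreted proteins of the upper epidermis and lie side by side on chromosome 7 with no protein-coding gene between them. Krtdap read 6.04, 2.17, 2.17, 6.42 and 5.96 in WT, 5.91 to 10.30 (median 9.32) in WT TNBS, 9.24, 2.44, 5.19, 5.43 and 7.71 in KO and 6.48 to 11.57 (median 10.13) in KO TNBS. Dmkn read 3.82, 3.23, 2.68, 3.97 and 4.10 in WT, 4.09 to 8.69 (median 7.29) in WT TNBS, 6.99, 3.58, 3.52, 5.18 and 5.39 in KO and 3.92 to 9.46 (median 7.87) in KO TNBS. Both rose in WT with overlapping groups, Krtdap by 4.0 ± 1.29 (limma adjusted p = 0.0387) and Dmkn by 3.18 ± 1.06 (adjusted p = 0.0452, 0.0538 with the replicate block). With 1 array left out in turn the WT call held in 17 of 23 fits for Krtdap and in 11 of 23 for Dmkn. In KO their differences of 3.58 ± 1.25 and 2.43 ± 1.02 did not pass (adjusted p = 0.0819 and 0.156). Sbsn read 5.47, 4.89, 4.63, 6.69 and 5.65 in WT, 5.73 to 10.05 (median 8.90) in WT TNBS, 8.41, 4.81, 5.31, 7.33 and 6.83 in KO and 6.48 to 11.17 (median 9.26) in KO TNBS, and its differences of 2.76 ± 0.99 and 2.63 ± 0.95 did not pass (adjusted p = 0.0625 and 0.0952).

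The remaining genes of these layers were near the lowest value in untreated colon. Dsg1a, a desmosomal cadherin of the upper layers, stood at the lowest value on all 10 untreated arrays and reached 5.07 in WT TNBS and 5.59 in KO TNBS. Its differences of 1.31 ± 0.67 and 1.66 ± 0.65 did not pass. Lypd3 reached 3.87 in WT TNBS and 4.89 in KO TNBS, and its KO difference of 1.44 ± 0.45 did not pass (limma adjusted p = 0.0526).

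Among the cornified envelope genes Lor read 3.32, 3.03, 2.49, 2.83 and 4.0 in WT and 3.58 to 8.46 (median 7.22) in WT TNBS. It read 5.91, 3.48, 3.22, 3.80 and 5.05 in KO and 4.09 to 9.61 (median 7.47) in KO TNBS. Lor rose in WT (3.39 ± 1.04, limma adjusted p = 0.0298) and in KO (3.24 ± 1.00, adjusted p = 0.0499), and the groups overlapped in both, WT TNBS array 2 and KO TNBS array 7 being the lowest of the treated arrays. With 1 array left out in turn the call held in 16 of 23 fits in WT and in 6 of 23 in KO. Sprr1a read 8.68, 7.38, 8.26, 8.16 and 8.08 in WT, below the 8.86 to 10.39 (median 9.56) of WT TNBS, and rose by 1.41 ± 0.39 (adjusted p = 0.0174). In KO it read 10.02, 8.30, 8.95, 9.76 and 9.09, inside the 8.82 to 10.47 (median 10.29) of KO TNBS apart from array 2, and the difference of 0.57 ± 0.38 did not pass (adjusted p = 0.429).

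Tgm3, a transglutaminase that cross-links the envelope, was the only envelope gene with negative differences. It read 11.17, 11.17, 9.24, 11.26 and 11.08 in WT, 9.81 to 10.57 (median 10.03) in WT TNBS, 11.09, 11.27, 11.66, 11.15 and 11.40 in KO and 10.18 to 11.35 (median 10.84) in KO TNBS. It was thus bright in untreated colon, WT array 3 excepted, and its differences of -0.65 ± 0.31 and -0.47 ± 0.30 did not pass (limma adjusted p = 0.172 and 0.386). The other 4 WT arrays lay above every WT TNBS array, and without WT array 3 Tgm3 was called lower in WT TNBS (-1.03, adjusted p = 0.00255), as it was with array weights (-0.86, adjusted p = 0.0275) and after median centring of each array (-0.82, adjusted p = 0.0188). These fits were looked up for Tgm3 after seeing the data. Median centring called 11471 of all 18194 genes in this contrast, so its call of Tgm3 says little. Involucrin (Ivl) stood at the lowest value on 14 arrays and reached 4.99 in WT TNBS and 6.16 in KO TNBS, and Sprr1b stood there on 8 and reached 7.15 and 7.32. Sprr3, an envelope gene of oral and oesophageal mucosa, read 2.82 on WT arrays 2 and 3 but 5.23 to 5.74 on the other WT arrays. Krt13, Krt4 and the epidermal gene Krtdap were also low on those arrays. Tgm1 never passed 2.54 and Cnfn never passed 3.20, so their probe sets showed little.

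Of the 6 members that other epithelia also express 2 rose with TNBS in WT (33.3%) and 1 in KO (16.7%). Over all genes 10.2% and 4.08% were called higher. Pkp1, a desmosomal plakophilin, read 10.08, 9.68, 9.52, 9.93 and 10.01 in WT, below all of WT TNBS (10.50 to 10.87, median 10.75), and rose by 0.87 ± 0.14 (limma adjusted p = 0.000331). In KO it read 10.27, 9.79, 10.10, 9.99 and 10.04 against 10.02 to 10.99 (median 10.80) in KO TNBS, and rose by 0.62 ± 0.14 (adjusted p = 0.00923), with KO TNBS array 7 inside the untreated range. Pkp3, the plakophilin of simple and stratified epithelia, read 6.40, 6.67, 6.60, 6.56 and 6.69 in WT, below the 6.79 to 7.31 (median 6.91) of WT TNBS, and rose by 0.39 ± 0.09 (adjusted p = 0.00348). It read 6.88, 6.95, 7.04, 6.98 and 6.64 in KO and 6.91 to 7.15 (median 7.08) in KO TNBS (0.14 ± 0.08, adjusted p = 0.349).

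Perp, a p53 family target of desmosomes, read 12.87, 12.71, 12.77, 12.83 and 12.73 in WT, 12.69 to 12.77 (median 12.76) in WT TNBS, 12.74, 12.77, 12.78, 12.80 and 12.72 in KO and 12.70 to 13.05 (median 12.90) in KO TNBS. The serpin gene Serpinb5 read 10.74, 10.87, 10.77, 10.88 and 10.72 in WT, 10.60 to 10.98 (median 10.86) in WT TNBS, 10.85, 11.04, 11.01, 10.87 and 10.84 in KO and 10.84 to 11.34 (median 11.03) in KO TNBS. The whole range of each over 23 arrays was under 1 log2 unit, and the TNBS differences did not pass (limma adjusted p = 0.754 and 0.0977 for Perp, 0.914 and 0.28 for Serpinb5 in WT and KO). The other probe sets of Serpinb5 gave -0.41 ± 0.11, -0.21 ± 0.08 and -0.15 ± 0.08 in WT (limma adjusted p = 0.014, 0.101 and 0.274). The one used gave 0.04 ± 0.08, so it disagreed in sign with the others. Sfn, the 14-3-3 sigma gene, stayed between 8.76 and 9.99, and the water channel gene Aqp3 read the same 4.04 on 13 arrays.

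Counted over all, 12 of the 34 measured genes rose with TNBS in WT and none fell, which is 35.3% higher against a background of 10.2% of all genes called higher and 6.27% called lower. They were Krt14 and Dsc3 of the basal layer, Krt17, Krt13, 4 of the 8 spinous and granular genes (Krt1, Krtdap, Dmkn and Spink5), Lor and Sprr1a of 8 envelope genes, and Pkp1 and Pkp3. At an unadjusted p under 0.05 there were 19 of 34, Tgm3 being the only lower one, against 27.5% of all genes in either direction. The median difference over the 34 was 1.40 on the log2 scale and over all genes 0. For 9 of the 34 the WT TNBS arrays lay wholly above WT, against 6.99% of all genes. In KO 5 of 34 rose and none fell, 14.7% against a background of 4.08% called higher and 4.47% called lower, with a median difference of 1.53 and 21 of 34 at an unadjusted p under 0.05, against 22.2% of all genes in either direction. Those 5 (Krt14, Krt1, Spink5, Lor and Pkp1) were among the 12 of WT, and Spink5 alone had groups that did not overlap, against 1.97% of all genes.

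The calls differed in how firmly they stood. Krt14, Krt17, Spink5, Pkp1 and Pkp3 in WT, and Spink5 in KO, passed under all 10 alternative settings tried and with any of the 23 arrays left out. Of the other WT calls, under the 10 settings Sprr1a kept its call in 10, Dsc3 and Krt13 in 9, Krt1, Krtdap and Lor in 8 and Dmkn in 7. Of the KO calls, Krt14 and Pkp1 kept theirs in 9, Krt1 in 7 and Lor in 4. No setting read the members from their other probe sets alone. In WT another, dimmer probe set of Pkp3 gave 0.21 ± 0.12 (limma adjusted p = 0.3). The others of Lor gave 1.71 ± 0.86 and 2.86 ± 1.12 (adjusted p = 0.224 and 0.104), and another of Krt14 gave 4.17 ± 0.83 (adjusted p = 0.00221). Without WT array 2 the WT count was 5, without WT array 3 it was 7 (6 higher and Tgm3 lower), and without WT TNBS array 3, 4 or 6 it was 6 each. In KO the count was 2 without KO array 2, 9 without KO array 1 and 14 without KO TNBS array 7, and it was 3 without any of 9 others (WT arrays 1, 4 and 5, WT TNBS array 5, KO arrays 3 and 4, and KO TNBS arrays 1, 4 and 6).

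**Figure D2:**
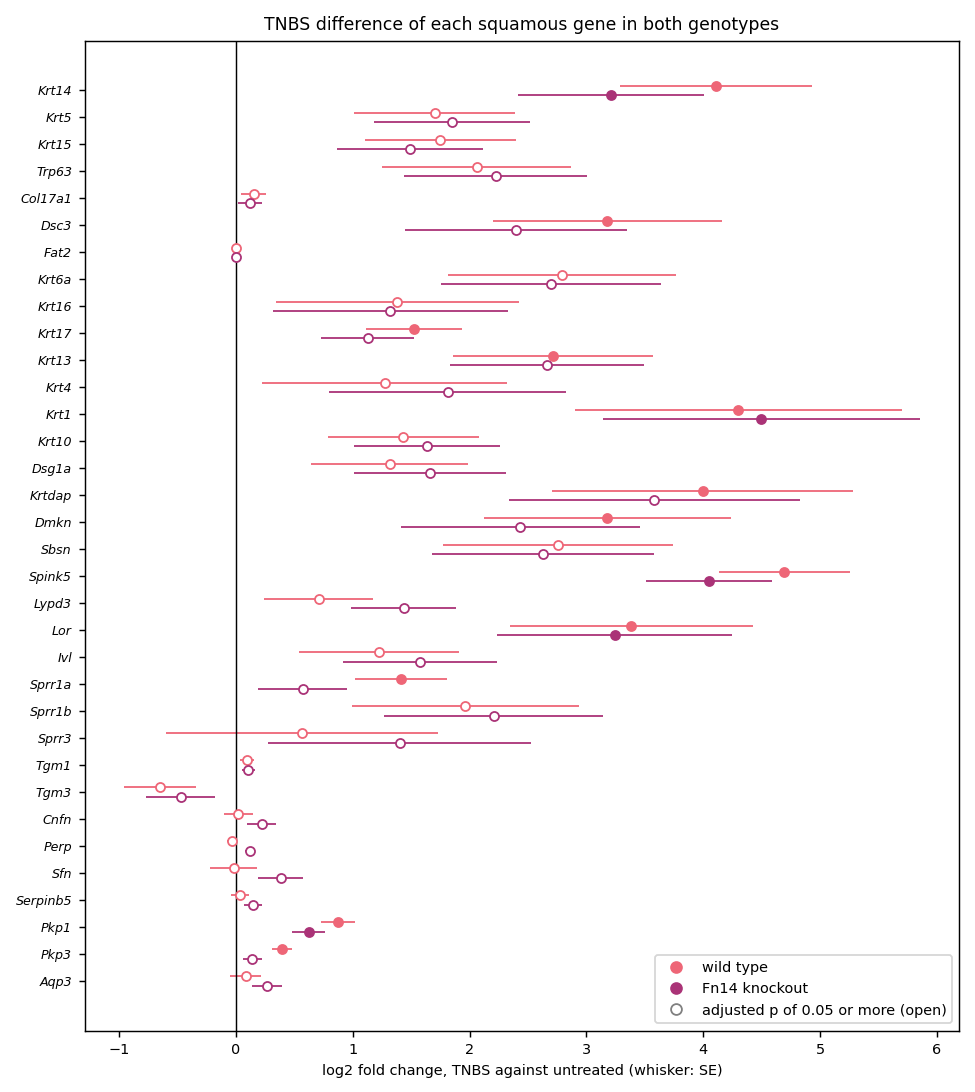
Log2 fold change of TNBS against untreated for each of the 34 squamous genes in wild-type and Fn14 knockout mice, with whiskers of 1 SE from limma over 23 arrays. Filled points passed an adjusted p of 0.05; the points of Spink5, Krt14, Krt1, Krtdap and Lor lie beyond 3 in both genotypes, and those of Tgm3 lie below 0.

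No genotype difference in the TNBS response was called for any of the 34 members. The interaction called 0 of 34 by limma at the adjusted threshold and 2 of 34 (Perp and Pkp3) at an unadjusted p under 0.05, against a background of 0.621% called higher and 1.37% called lower and 15.7% at the unadjusted threshold. The median interaction over the 34 was 0.01, but the errors were wide: that of Krt1 was 0.20 ± 1.95 and that of Krt14 -0.90 ± 1.15. Under TNBS 2 of 34 were higher in KO than in WT, Perp by 0.13 ± 0.04 (limma adjusted p = 0.0417) and Serpinb5 by 0.23 ± 0.07 (adjusted p = 0.0444), against 3.73% of all genes called higher and 6.72% lower. Both genes' groups overlapped, both calls were lost when only the groups compared were fitted (0 calls), and with 1 array left out in turn the Perp call held in 12 and the Serpinb5 call in 7 of 23 fits. In this contrast the other probe sets of Serpinb5 also had positive differences, of 0.37 ± 0.10, 0.31 ± 0.07 and 0.20 ± 0.07 (limma adjusted p = 0.0206, 0.0127 and 0.107).

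Without TNBS, Pkp3 was higher in KO by 0.31 ± 0.09 (limma adjusted p = 0.0487), 1 of 34 against 2.92% of all genes called higher and 1.91% lower, and its groups overlapped. The call was lost under 6 of 10 alternative settings and held in 4 of 23 fits with an array left out. Sprr1a, at 9.22 ± 0.68 (SD, n = 5) in KO against 8.11 ± 0.47 (n = 5) in WT, differed by 1.11 ± 0.41 and did not pass (adjusted p = 0.129).

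The squamous genes rose and fell together from array to array within groups. After group means were subtracted, the Pearson correlation of a gene with the mean of the other members over 23 arrays had a median of 0.81 over 33 genes, and was over 0.8 for 18 and over 0.5 for 25. Over all genes the median correlation with the members' mean was 0.05, and 848 genes (5.15%) were over 0.5. Dmkn was highest at 0.96, and the lowest were Pkp3 at -0.25, Perp at -0.06, Sfn at 0.15, Krt16 at 0.22 and Tgm3 at 0.23. All points share the same arrays, so these correlations describe shared variation and carry no test.

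The mean log2 signal of the 34 genes ran from 4.20 to 5.06 on the WT arrays, from 5.27 to 7.09 in WT TNBS, from 4.38 to 6.18 in KO and from 5.16 to 7.83 in KO TNBS. The 4 highest arrays were KO TNBS arrays 4, 6, 1 and 2, followed by WT TNBS arrays 6, 4 and 3. KO array 1 was the 8th of 23, above 6 of the 13 treated arrays. KO TNBS array 7, at 5.16, was the lowest treated array, and WT arrays 3 and 2 were the lowest of all.

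Correlations of neighbouring genes and partner keratins ranged widely. After subtracting group means, Sbsn and Dmkn correlated at 0.97, Krtdap with Sbsn at 0.89 and with Dmkn at 0.87, Krt1 and Krt10, which lie on different chromosomes, at 0.89, and Krt14 and Krt5 at 0.85. Sprr1a and Sprr1b correlated at 0.77, against a median of 0.72 over all pairs of upper-layer genes, and the neighbours Krt14 and Krt16 at 0.51 and Krt16 and Krt17 at 0.11. Basal genes correlated with upper-layer genes (median 0.71 over 96 pairs) about as they did among themselves (0.77 over 15 pairs). The shared epithelial genes had a median of 0.08 among themselves (15 pairs). With basal and upper-layer genes their median was 0.17 (132 pairs, from -0.51 to 0.87). Among them Pkp1 correlated with the mean of the other members at 0.88, and the others at -0.25 to 0.40.

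**Figure D3:**
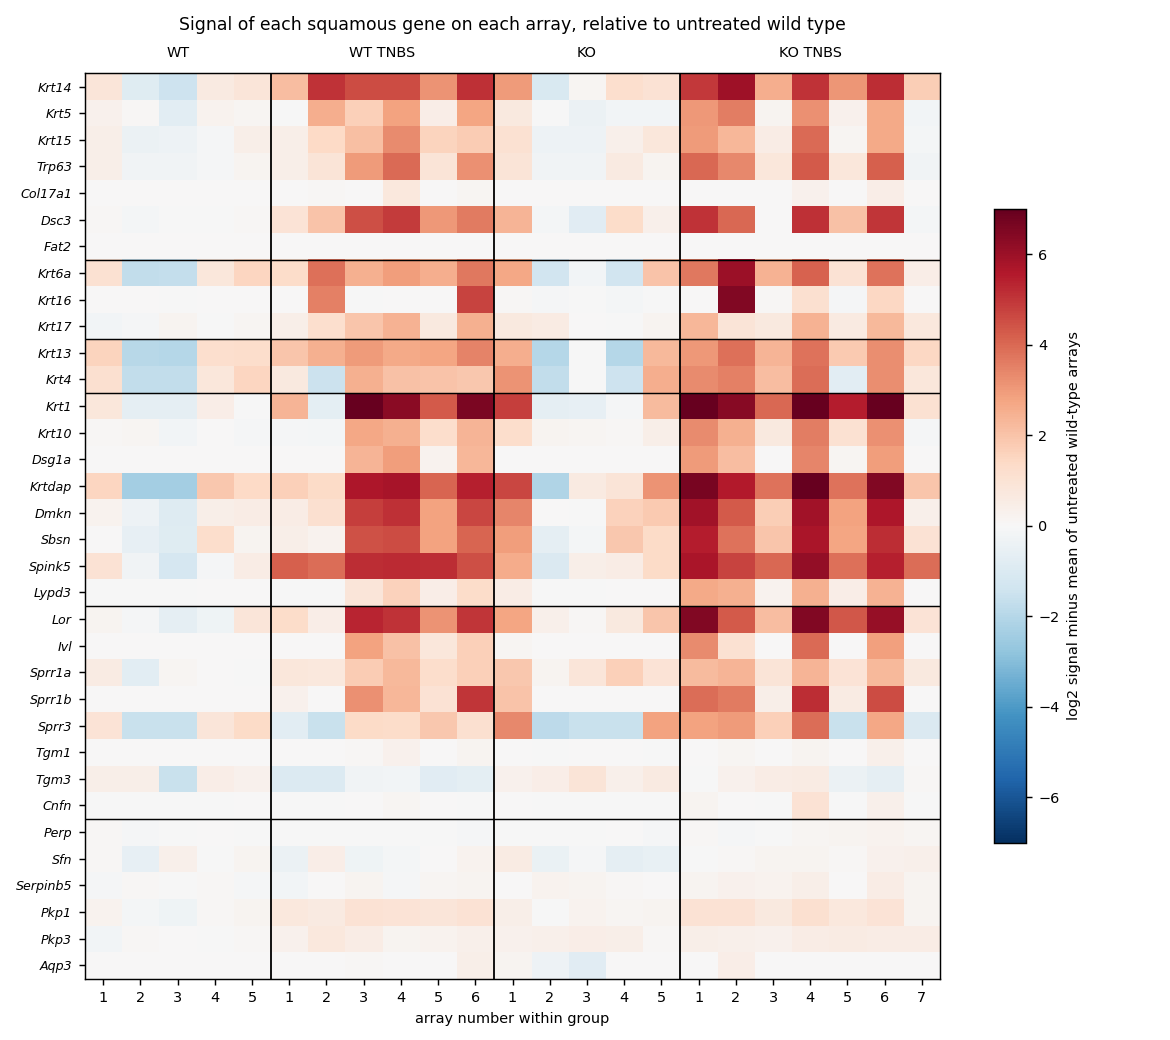
Log2 signal of each of the 34 squamous genes (rows, by role from basal at the top to shared epithelial at the bottom) on each of the 23 arrays (columns, by group), as the difference from the mean of the 5 untreated wild-type arrays, with colours capped at 7 log2 units. The same treated arrays, WT TNBS 3, 4 and 6 and KO TNBS 1, 2, 4 and 6, are the darkest red in most rows from Krt14 to Sprr1b, KO array 1 is red among the untreated, and Krt13, Krt4, Krt6a, Krtdap and Sprr3 are blue on WT arrays 2 and 3.

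Basal and upper-layer genes were set against each other as shifts from the WT mean, taken over 7 basal genes and 16 spinous, granular and envelope genes. In WT TNBS the basal shift was 1.85 ± 0.85 (SD, n = 6) and the upper-layer shift 1.90 ± 1.22. In KO TNBS they were 1.90 ± 1.29 (n = 7) and 2.54 ± 1.37, and in KO 0.28 ± 0.58 (n = 5) and 0.61 ± 0.89. Basal minus upper-layer shift was -0.05 ± 0.77 in WT TNBS, -0.64 ± 0.28 in KO TNBS and -0.33 ± 0.41 in KO. These values moved with the genes averaged. Leaving out the 5 genes that passed log2 5 on no array (Col17a1, Fat2, Lypd3, Tgm1 and Cnfn), an alternative chosen after seeing the data, gave 0.28 ± 0.91 in WT TNBS, -0.35 ± 0.41 in KO TNBS and -0.35 ± 0.45 in KO. The mean of all probe sets gave -0.58 in WT TNBS and -1.19 in KO TNBS, and leaving out WT TNBS array 2 gave -0.35 in WT TNBS. The sign in WT TNBS thus turned with these choices, and no order of basal and upper-layer genes or of the genotypes is read from these values.

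WT TNBS array 2 had the largest difference in favour of the basal genes, with a basal shift of 1.70 and an upper-layer shift of 0.28, a difference of 1.42. On it Krt14 read 9.74, Krt6a 7.71, Krt16 5.82 and Krt13 7.0, while Krt1 was at 2.17, Krt4 at 2.35 and Lor at 3.58. The other 5 WT TNBS arrays had basal minus upper-layer values between -0.69 and -0.04. These shifts describe the chosen genes and were not tested between groups.

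**Figure D4:**
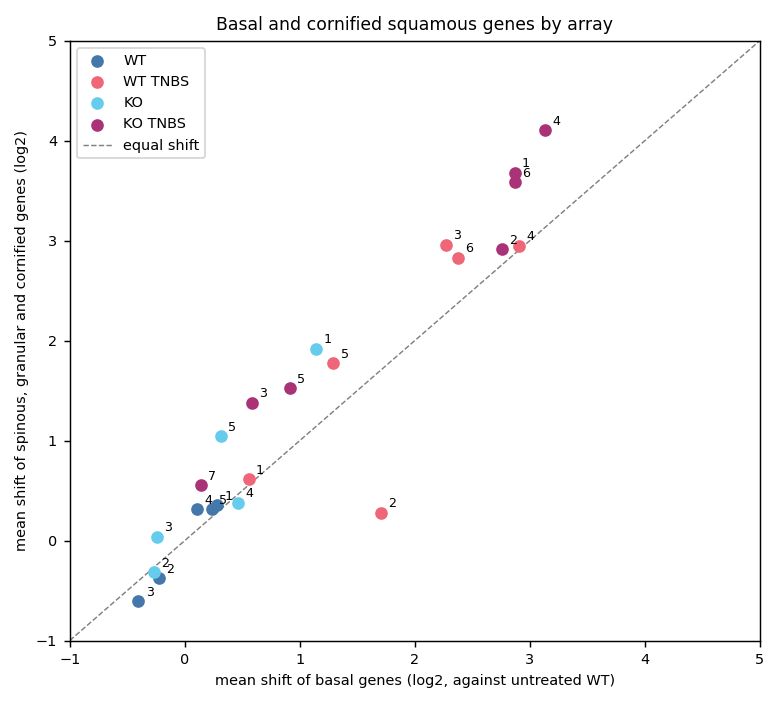
Mean shift of 7 basal genes (horizontal axis) and of 16 spinous, granular and cornified genes (vertical axis) on each array, in log2 units from the mean of the 5 untreated wild-type arrays, with the array number beside each point. Most treated arrays lie on or above the dashed line of equal shift, and WT TNBS array 2 lies far below it at 1.70 and 0.28.

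Many other genes of squamous epithelium, outside the 35, moved with them. Of 71 further genes listed 64 were measured, of which 16 rose and 0 fell with TNBS in WT, and 7 rose and 0 fell in KO. These are 25.0% in WT, against 10.2% of all genes called higher and 6.27% lower, and 10.9% in KO, against 4.08% and 4.47%. The interaction called 1 of the 64 lower and 0 higher, against 1.37% and 0.621% of all genes. Clca2, a chloride channel accessory gene of stratified epithelium, rose by 4.23 ± 0.18 in WT and 2.93 ± 0.17 in KO (limma adjusted p = 2.65e-12 and 1.32e-09), and was lower in KO than in WT under TNBS by a log2 difference of -1.05 ± 0.16 (adjusted p = 0.000427). The laminin chain gene Lama3 rose by 1.23 ± 0.17 and 0.77 ± 0.17, and the connexin gene Gjb2 by 0.65 ± 0.11 and 0.47 ± 0.11. The integrin gene Itgb4 rose by 0.55 ± 0.11 in WT, and Klk8, a kallikrein protease, by 1.29 ± 0.38 in WT and 1.64 ± 0.37 in KO. Lama3, Gjb2 and Itgb4 were already bright in untreated colon, with WT means of 7.67, 9.45 and 7.07. After group means were subtracted, the mean of the 64 correlated with the mean of the members at 0.93 over 23 arrays. Singly, 40 of the 64 correlated at over 0.5, against 5.15% of all genes. Gjb2 correlated at 0.63, Clca2 at 0.37, Itgb4 at -0.02 and Lama3 at -0.03.

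The genes outside the members most like their mean within groups, over 23 arrays, were Gm94 and Lgals7 (0.96 each), Serpinb3a (0.95), Calm4 and Klk13 (0.94 each), Ly6d, Rptn and Crct1 (0.93 each), and Dapl1 and Teddm3 (0.92 each). Of these 10, Lgals7, Klk13, Ly6d, Rptn and Crct1 were on the list of further squamous genes. Lgals7, which encodes galectin-7, rose in WT (3.59 ± 1.10, limma adjusted p = 0.0299), and Ly6d rose in KO (2.13 ± 0.59, adjusted p = 0.0309). The lowest correlations were those of Letmd1 and Nsrp1 (-0.76 each), Hoxa3 (-0.75), Lypd8 and Ptbp3 (-0.72 each).

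Markers of skeletal muscle and of hair follicle and sebaceous gland varied with the squamous genes. The mean of 24 skeletal muscle genes correlated with the members' mean at 0.69 over 23 arrays after subtracting group means (Spearman 0.71, and 0.72 without the 2 arrays farthest from the median), and at 0.85 among the 6 WT TNBS and 0.78 among the 7 KO TNBS arrays. That muscle mean ran from 3.17 to 4.53 in WT, 3.21 to 6.43 in WT TNBS, 5.19 to 7.0 in KO and 4.45 to 7.46 in KO TNBS. Untreated KO arrays thus lay above untreated WT arrays in muscle signal, and 6 of the 24 muscle genes (Mybpc2, Acta1, Tnnt3, Tnni2, Ryr1 and Atp2a1) were called higher there, against 2.92% of all genes called higher and 1.91% lower. With TNBS in WT 0 muscle genes were called higher and 1, Tnni1, was called lower, by 1.50 on the log2 scale (limma, 3 at an unadjusted p under 0.05). In KO none was called (2 at the unadjusted threshold). Over all genes 27.5% and 22.2% were under the unadjusted threshold in WT and KO. Most muscle differences were still positive, 21 of 24 in WT (median 0.79) and 18 of 24 in KO (median 0.29). Over all genes 44.1% and 38.4% were positive, with a median of 0 in each.

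Hair follicle and sebaceous genes, 17 measured, had a mean that correlated with the members' mean at 0.74 within groups. None was called with TNBS in either genotype by limma. At an unadjusted p under 0.05 there were 2 in WT and 3 in KO, against 27.5% and 22.2% of all genes. The differences of these genes were positive for 12 and negative for 4 in WT (median 0.24), and positive for 12 and negative for 1 in KO (median 0.56). Over all genes 44.1% and 38.4% were positive. The means of simple epithelium keratins, colonocyte genes and goblet genes correlated with the members' mean within groups at -0.09, -0.33 and -0.41. Those of melanocyte and epidermal Langerhans cell genes correlated at -0.15 and 0.17. Of the 5 simple keratins Krt18 and Krt7 rose with TNBS in WT (0.36 ± 0.04 and 0.44 ± 0.07, limma adjusted p = 1.02e-05 and 0.000351), against 10.2% of all genes called higher. None of the 5 was called in KO, against 4.08% called higher and 4.47% lower. The interaction called 2 of the 5 lower, against 1.37% of all genes. Of 3 genes of epidermal Langerhans cells none was called in WT. Epcam, which colon epithelium also expresses, was lower in KO TNBS than in KO (-0.12 ± 0.03, limma adjusted p = 0.026), against 4.47% of all genes called lower. Cd207, the defining marker of Langerhans cells, had group means between 2.24 and 2.35. None of 5 melanocyte genes was called with TNBS (0 in WT and 1 in KO at the unadjusted threshold), and the mean of these 5 lay between 2.18 and 2.42. The part of muscle, hair follicle or sebaceous signal in the squamous results was not tested.

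**Figure D5:**
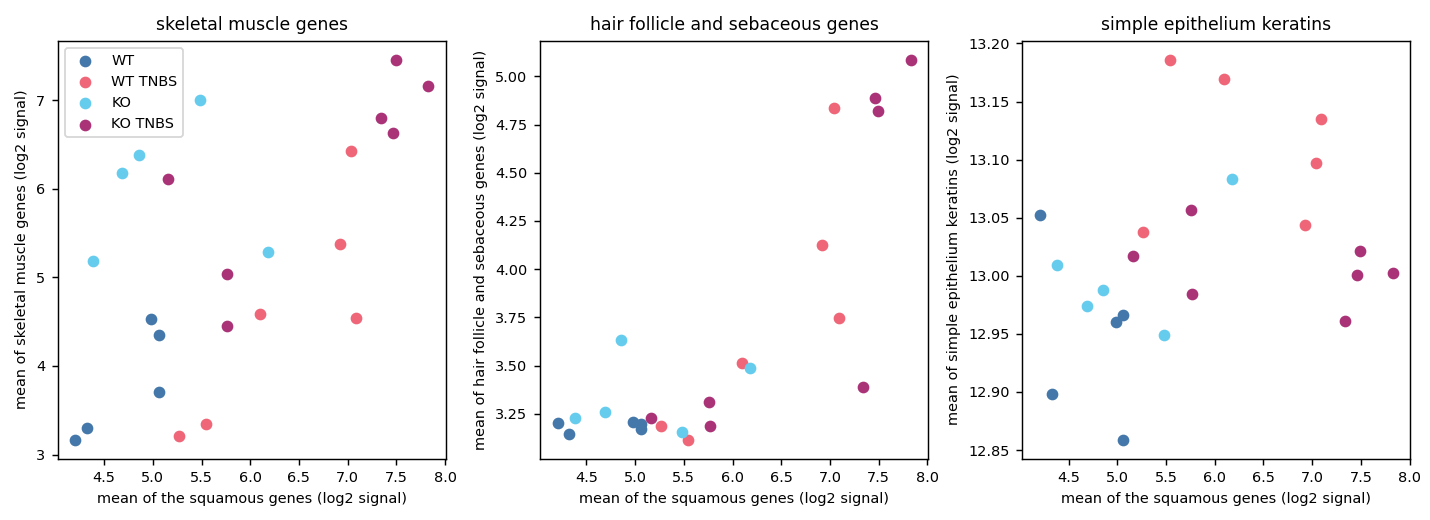
Mean log2 signal of 3 marker lists (vertical axes: 24 skeletal muscle genes, 17 hair follicle and sebaceous genes, 5 simple epithelium keratins) against the mean of the 34 squamous genes (horizontal axis), 1 point per array, coloured by group. Arrays with high squamous means often have high muscle and hair follicle means, with exceptions such as KO TNBS array 2 (squamous mean 7.34, hair follicle mean 3.39) and WT TNBS array 6 (7.09, muscle mean 4.54), untreated KO arrays lie above untreated WT arrays in muscle signal, and the simple keratins stay between 12.9 and 13.2.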

How the data were processed

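The values are log2 signals of 45101 probe sets, as deposited by the authors for 23 arrays. RMA and GCRMA are both named in the submitters' processing notes, without saying which produced these values or in which version. The number of arrays limits the precision. Gene names came from the array's platform annotation, with current symbols from RefSeq genes on GRCm38.p6, and those naming several genes were left out. Contrasts were fitted with limma 3.58.1 in R 4.3.3 on all 18194 genes and 4 groups, with no covariate, and p-values were adjusted by Benjamini-Hochberg over all genes at 0.05. The fit was tested on simulated data. The members and lists were chosen with earlier results of these data known. Named genes were the 3 brightest members of each role group, members called in any contrast, the 10 genes most and 5 least like the members' mean, and up to 4 genes of smallest p from other lists. Alternatives were other probe set rules, scalings, filters, fits, a replicate block and leaving out each array. Arrays sharing a number did not deviate together (correlations from -0.46 to 0.43), so the numbers were not taken as pairs.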

Additional observations from a re-analysis of the deposited data

Results flagged for a closer look

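Of 131 groups of values tested, 16 held a sample far from the others, and chance gives about 1 in 20. KO array 1 was the high sample for Krt10 (7.93), Lypd3 (2.77), Ivl (2.28), Sprr1b (4.14) and Cnfn (2.21). WT array 3 was the low sample for Krt5 (2.47), Krt16 (2.28) and Tgm3 (9.24). KO TNBS array 2 was the high sample for Krt16 (8.78) and Aqp3 (4.54), and KO TNBS array 4 for Cnfn (3.20). Among WT TNBS arrays, array 4 was high for Col17a1 (2.90) and Cnfn (2.29), and array 6 was low for Perp (12.69) and high for Aqp3 (4.45). Array 2 of WT TNBS was high for the basal minus upper-layer shift (1.42). Several of these values lie close to the lowest value of the series, 2.17, where small differences are large against a nearly constant group.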

How the results depend on the processing

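The count of squamous genes called with TNBS in WT, 12, was 20 with arrays centred on their medians (17 higher, 3 lower, while 11471 genes were called overall) and 7 with values below log2 5 set to 5. Leaving out each array gave 5 to 15. The count in KO, 5, was 3 with every probe set fitted on its own. In that setting each member was still read from its chosen probe set, and only the pool of tests changed. The count was 1 with only the groups of the contrast, 15 with array weights, 8 with the replicate number as a block and 2 to 14 with an array left out. It was 10 with dim genes filtered out, among 25 members left of the 34. That filter asked for values above log2 5 on at least 5 arrays of any group. Krt5, Krt15, Trp63 and Sprr1b exceeded log2 5 on TNBS arrays only. Other members, among them Dsc3 and Spink5, reached 5 arrays only with TNBS arrays counted. The count under this filter is therefore not set against the others. Under TNBS the genotype count, 2, was 1 with values below 5 set to 5, 0 with only the groups compared, 1 with the replicate block and 0 to 2 with an array left out. Without TNBS the genotype count, 1, was 0 with every probe set on its own, quantile normalization, median centring, the floor at 5, only the groups compared and the replicate block, and 0 to 1 with an array left out. The interaction count was 0 in all fits, and the block gave 10 for TNBS in WT. In the block fits KO TNBS array 7 had a term of its own and added nothing. Basal minus upper-layer shift in KO TNBS, -0.64, was -1.19 with the mean of all probe sets and -0.35 without the 5 dimmest genes, a choice made after seeing the data. In WT TNBS it went from -0.58 to 0.28, so its sign turned. No call changed direction, and causes were not tested. Calls lost in WT were those of Dsc3, Krt13, Krt1, Krtdap, Dmkn and Lor (highest adjusted p over their alternatives 0.153, 0.106, 0.101, 0.109, 0.176 and 0.175) and of Sprr1a, lost without WT array 2 (0.055). In KO, the Krt14 call was lost with only the groups compared (0.0712) and without KO array 2 (0.0518), the Pkp1 call with only the groups compared (0.0529), and those of Krt1 and Lor in most fits with an array left out (highest 0.115 and 0.121). The lowest value of the series limits what can be said of Fat2, Col17a1, Tgm1, Cnfn, Dsg1a, Ivl and Sprr1b.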
